A study of Mus musculus with 2 samples.

Results

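Among 9917 cells sorted as vascular endothelium from mouse embryos, 64 carried mesenchymal messages and no Cdh5. These were the cells with at least 1 UMI (unique molecular identifier, 1 counted mRNA molecule) of at least 2 of the 4 genes Col1a1, Col3a1, Twist1 and Pdgfra, no UMI of Cdh5, which encodes VE-cadherin, and UMIs of fewer than 2 of the neural genes Sox2, Hes5, Pax6 and Tubb3. The control library held 51 of them among 6675 cells and the mutant library 13 among 3242. For comparison, 5737 control and 2352 mutant cells had at least 1 Cdh5 UMI and are called Cdh5 cells here.

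Both libraries came from C57BL/6J embryos, from the dorsal aorta and the umbilical and vitelline arteries, sorted as Ter119-, CD41lo/-, CD31+CD144+ and ESAM+. The control embryos were Mekk3 fl/fl or Mekk3 fl/+. The mutant embryos were Mekk3 fl/-; Tie2Cre+, so they carried 1 null and 1 floxed allele of Map3k3, the gene of the kinase Mekk3, and a recombinase driven by the Tie2 promoter, which is active in endothelial and blood cells. Both titles give embryonic day 9.5, but the mutant's own stage entry is 9.7. The number of embryos pooled per library is not given. Each group was 1 library, so no test between genotypes was possible. Every interval below is at 95% and covers counting error only, not the spread between embryos, and library, stage, pooled embryos and genotype cannot be told apart.

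Mesenchyme is the loose tissue of embryos from which connective tissue, cartilage, bone, and much of the smooth muscle around vessels arise. Its cells make fibrillar collagens and proteoglycans and carry the PDGF receptor encoded by Pdgfra, and basic helix-loop-helix and homeobox factors such as Twist1 and Prrx1 are active in them. Around the dorsal aorta it derives from somites and sclerotome, which flank the neural tube, from the lateral plate, which lines the body cavity and forms the limb buds, and farther forward from neural crest. Mesenchymal cells signal to the endothelium they enclose, and they do not normally make VE-cadherin, on which this sort selected.

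The mesenchymal cells were no shallower than the endothelium around them. They held a median of 8632 UMIs in the control, from 2992 to 29478, and 11409 in the mutant, from 6288 to 31005, against medians of 8353 and 6726.5 in Cdh5 cells. Their sums came to 522054 control UMIs and 172993 mutant UMIs. Levels are in CPM, the UMIs of a gene per 1000000 UMIs of the same cells, and a gene with no UMI may lie at up to 5.75 CPM in control and 17.3 CPM in mutant cells, from a floor of 3 UMIs per library. The libraries shared 5 cell barcodes, of which 0 belonged to a mesenchymal cell. Map3k3 had 0 UMIs in the mesenchymal cells of either library. In control and mutant Cdh5 cells it lay at 9.37 and 11 CPM, a 3′ tag that need not lie in the deleted part and so does not check the labels. The male-specific Ddx3y had UMIs in 7 of 51 control and 0 of 13 mutant mesenchymal cells, and in 783 control and 0 mutant Cdh5 cells, so the libraries differed in this too.

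The mesenchymal share was 0.764% of the control library (exact interval 0.569 to 1.003) and 0.401% of the mutant (0.214 to 0.685), a ratio of 0.525 (0.262 to 0.979). The sort gate can set such shares, and the mutant library was shallower, with a median of 5647 UMIs over all its cells against 7566. With every cell thinned to 2000 UMIs and the rule applied again, 24 of 5853 control cells (0.410%) and 1 of 2616 mutant cells (0.0382%) qualified. Of the 64 cells, 34 held exactly 2 of the 4 genes, 21 held 3 and 9 held all 4. With at least 3 of the 4 genes required, the shares were 0.330% and 0.247%, a ratio of 0.749. Just outside the rule lay 37 control and 32 mutant cells with exactly 1 of the 4 genes and no Cdh5, 0.554% and 0.987% of their libraries. A further 30 control and 5 mutant cells had at least 2 of the genes but also Cdh5, in 2 and 3 of them a single UMI, and 1 control cell was kept out by its neural genes.

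The levels of the genes that chose the cells are a description, since the rule fixed them. Twist1, a factor of mesenchyme formation, lay at 406 CPM (353 to 465) in control and 243 CPM (175 to 328) in mutant mesenchymal cells, against 4.13 and 4.79 CPM in Cdh5 cells. A control cell had a median of 4 Twist1 UMIs and at most 16, and a mutant cell 2 and at most 12. Col3a1, a fibrillar collagen, lay at 259 and 237 CPM, and 42 of 51 and 12 of 13 cells had a UMI, against 1.88% and 0.935% of Cdh5 cells. Pdgfra, the receptor, lay at 57.5 and 63.6 CPM. Col1a1, the main collagen of bone and skin, lay at 188 and 63.6 CPM, but 63 of its 98 control UMIs came from 1 cell. Crabp1, a retinoic acid binding protein that the rule did not use, lay at 421 CPM (368 to 481) and 382 CPM (295 to 485), with UMIs in 29 and 9 cells, against 6.13 and 17.9 CPM in Cdh5 cells. Crabp1 was named beside the rule genes with earlier results of these data known, so its level is a description as well. Not every mesenchymal cell had a Crabp1 UMI, and the comparison was with Cdh5 cells only.

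**Figure D1:**
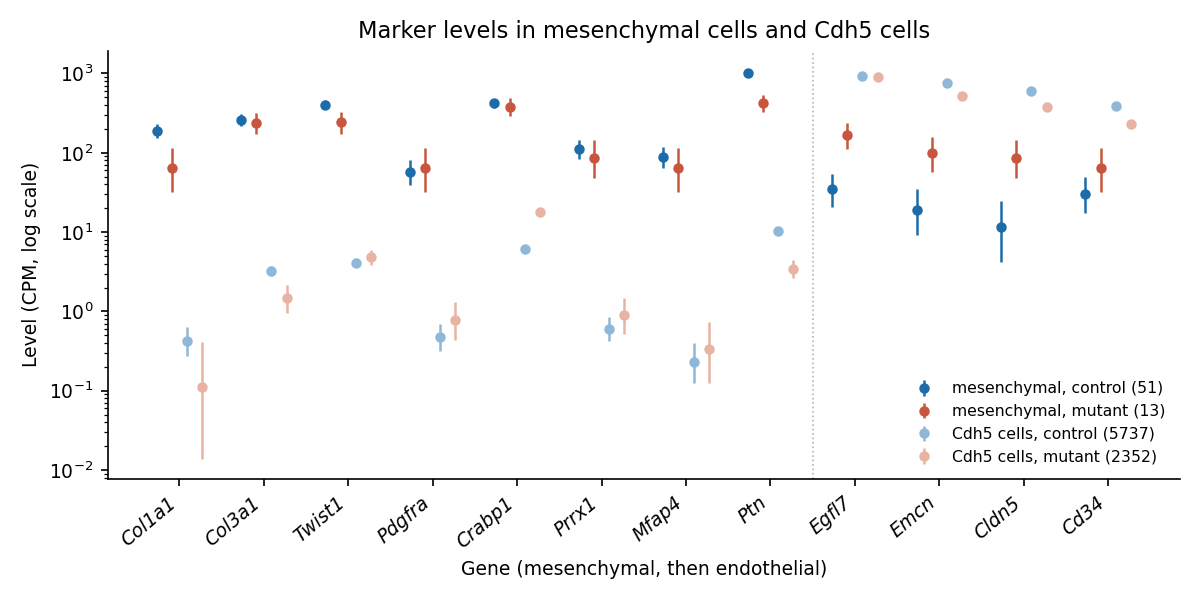
Level in CPM on a log axis of 8 mesenchymal genes and, right of the dotted line, 4 endothelial genes, in mesenchymal cells and in Cdh5 cells of each library; points are summed counts over the class total and bars are exact Poisson 95% intervals. Mesenchymal genes lay far above their Cdh5-cell level in both libraries, and the endothelial genes lay below it, with mesenchymal Cldn5 at 11.5 CPM (control) and 86.7 CPM (mutant).

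The 12 genes that stood highest over Cdh5 cells are given next. Since Cdh5 and the 4 genes chose both classes, these contrasts are given as values only. Past 2-fold higher were 13.5% of 12649 genes in the control and 14.1% of 11120 in the mutant. Many of these genes had few UMIs expected in the mesenchymal cells. Among genes with at least 10 expected there, a bound chosen after seeing the data, 136 of 5016 and 59 of 2136 were higher. Mfap4, a microfibril protein, lay at 88.1 CPM in control mesenchymal and 0.232 CPM in control Cdh5 cells. Prrx1, a homeobox factor of limb and craniofacial mesenchyme, lay at 111 CPM in the control and 86.7 in the mutant, against 0.608 and 0.902 CPM. Gpc3, a proteoglycan that binds growth factors, lay at 360 and 376 CPM. Ptn, which encodes the secreted growth factor pleiotrophin, lay at 1009 CPM (925 to 1099) and 422 CPM (331 to 531), against 10.4 and 3.44. Its relative midkine, encoded by Mdk, was present in all 64 cells, at 2904 and 2711 CPM, and Cdh5 cells had 622 and 825. Foxd1, Lum, Krt8, Col2a1, S1pr3, Pitx1, Col9a1 and Dnm3os were the other leading genes, at 40.2 to 146 CPM in the control and 5.78 to 63.6 in the mutant. In the mutant S1pr3 and Dnm3os had 1 UMI each and Krt8 had 2, under the floor of 3 UMIs. Single cells held 34 of the 54 control UMIs of Lum and 19 of the 37 of Krt8.

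Of all genes, 13.5% in the control and 14.1% in the mutant were past 2-fold higher than in Cdh5 cells, and 26.6% and 32.2% were past 2-fold lower. The lists were counted without the genes of the rule, which were high by selection. Of the other matrix genes measured, 13 of 23 in the control and 6 of 13 in the mutant were past 2-fold higher than in Cdh5 cells, and 3 and 1 were past 2-fold lower. The list of mesenchymal factors and adhesion genes had 9 of 12 and 6 of 10 higher, and 0 and 1 lower. Genes of signals that reach vessels had 14 of 22 and 10 of 20 higher, and 4 and 6 lower. Among them Cxcl12, a chemokine that guides endothelium and blood progenitors, lay at 134 and 110 CPM, against 4.58 and 11.3 in Cdh5 cells. The hedgehog list had 5 of 7 and 6 of 7 higher and 1 lower in each library, with Gas1, a co-receptor, at 193 and 80.9 CPM against 4.70 and 6.71. The retinoid list had 4 of 11 higher and 1 lower in the control, and 3 of 10 higher and 4 lower in the mutant. Crabp2 lay at 356 and 277 CPM against 5.99 and 6.88.

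Endothelial genes were low but not absent. All 14 measured genes of the endothelial list were past 2-fold lower than in Cdh5 cells in both libraries, against 26.6% and 32.2% of all genes. Among genes with at least 10 UMIs expected in the mesenchymal cells, 738 of 5016 and 271 of 2136 were lower. The summed level of the 14 genes was 195 CPM (159 to 237) in control and 607 CPM (496 to 735) in mutant mesenchymal cells, against 4431 and 3903 CPM. Counting 11 endothelial genes other than Cdh5, 31 control and 2 mutant cells held none, and 12 control and 4 mutant cells held at least 2. The richest cells held 9 and 8 of the 11 in the mutant and 7 and 6 in the control. Cldn5, a tight-junction protein of endothelium, had 15 mutant UMIs, of which 14 lay in 1 cell. No doublets were removed, and the part that joined cells or free RNA had in these counts was not tested; leaving out cells with at least 2 of the 11 genes gave 39 control and 9 mutant cells.

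Few cells carried genes of other lineages. No cell held 2 or more blood genes (0 of 64, an upper limit of 5.60%). The rule removed cells with 2 of its 4 neural genes; of 7 neural genes it did not use, at least 1 was held by 7 control and 2 mutant cells and at least 2 by 0 of 64. A single control cell held 12832 of the 12838 erythroid UMIs, 43.5% of its own 29478 UMIs. At least 2 epithelial genes were held by 6 control and 2 mutant cells. At least 2 mesothelial genes were held by 4 control cells and by 0 of 8089 Cdh5 cells. These 4 cells had 26 Krt8 and 12 Upk3b UMIs, and 68 of the 98 control UMIs of Col1a1.

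Genes of regional identity were held by most cells, often of more than 1 region. At least 2 somite and sclerotome genes were held by 26 of 51 control cells (51%, 36.6 to 65.2) and 6 of 13 mutant cells (46.2%, 19.2 to 74.9), against 21.0% and 8.33% of Cdh5 cells. At least 2 lateral plate genes were held by 25 control cells (49.0%, 34.8 to 63.4) and 9 mutant cells (69.2%, 38.6 to 90.9), against 21.5% and 15.6%. At least 2 neural crest genes were held by 11 and 3 cells (21.6% and 23.1%), never without one of the other lists, and by 3.66% and 17.98% of Cdh5 cells, so the mutant share was near that of its endothelium. Somite genes alone were found in 14 control and 1 mutant cell, and lateral plate genes alone in 11 and 5. At least 2 of the 3 lists were met by 17 and 5 cells, and none by 9 and 2. These counts depend on depth: thinned to 2000 UMIs, 5 and 0 cells held 2 somite genes, and 7 and 4 held 2 lateral plate genes.

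**Figure D2:**
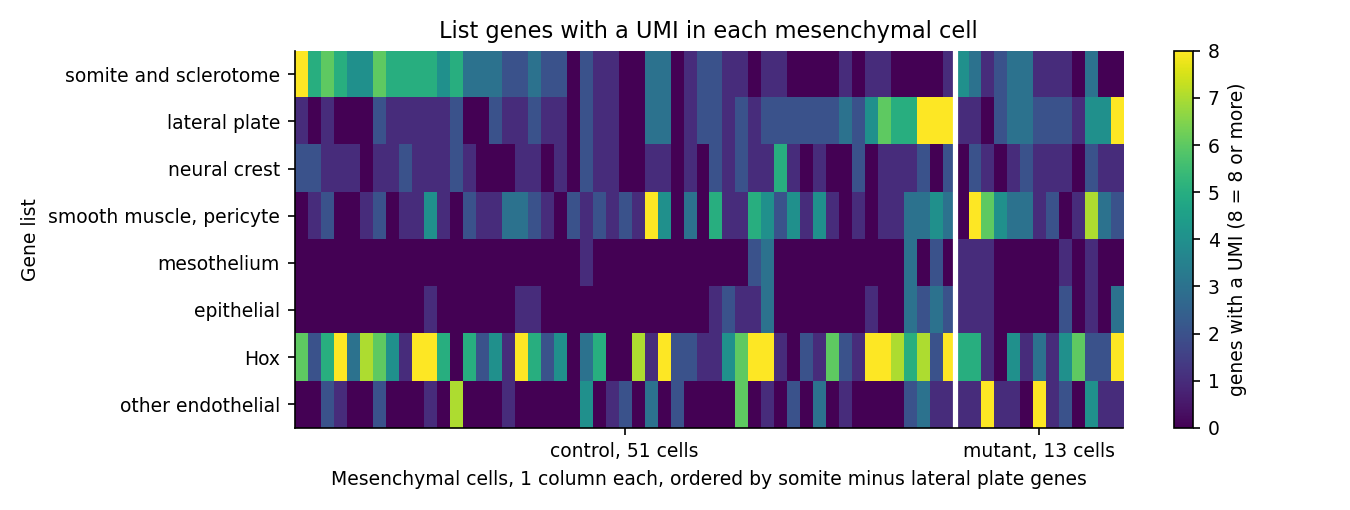
Number of genes with at least 1 UMI, by colour, for 8 gene lists (rows) in each of the 64 mesenchymal cells (columns), ordered within a library by somite minus lateral plate genes. Cells at the left of each library carry somite genes and those at the right lateral plate genes, and 2 mutant columns stand out in the endothelial row with 8 and 9 genes.

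The control cells with somite genes alone and those with lateral plate genes alone also differed in genes that neither list held. The sums were 156298 and 104997 UMIs, and the cells were chosen by these lists and by lacking 2 neural crest genes, so genes of the 3 lists are no finding. Foxd1, a forkhead factor, lay at 218 CPM in the 14 somite cells and 19.05 CPM in the 11 lateral plate cells, a ratio of 11.4 (2.93 to 98.1). Sox9, the cartilage factor, which is on the neural crest list, lay at 166 and 9.52 CPM, and the cartilage collagen genes Col2a1 and Col9a1 had 16 and 15 UMIs against 0 and 2. Cxcl12 lay at 160 and 38.1 CPM, a ratio of 4.20 (1.45 to 16.6). Nnat, an imprinted gene, lay at 1043 and 343 CPM. The opposite held for Ptn, at 192 and 1952 CPM, a ratio of 0.0983 (0.0647 to 0.145). Crabp1 lay at 115 and 400 CPM, and Crabp2 at 154 and 486. Prrx1 lay at 64.0 and 181 CPM, and Gas1 at 96.0 and 371. Krt8, a keratin, had 0 and 27 UMIs, and 26 of the 27 lay in 3 of the 11 lateral plate cells that also held at least 2 mesothelial genes. Twist1 and Gpc3 had intervals that include 1, with ratios of 1.46 (0.962 to 2.26) and 0.740 (0.494 to 1.11).

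Hox genes, which mark the position of a cell along the body axis in the order of their paralogue groups, were measured as a further guide. Groups 1 to 4, which reach farthest forward, summed to 291 CPM (247 to 341) in control and 277 CPM (205 to 368) in mutant mesenchymal cells. Groups 5 to 8 summed to 222 CPM (184 to 267) and 80.9 CPM (44.2 to 136), and groups 9 to 13 to 207 CPM (170 to 250) and 57.8 CPM (27.7 to 106). Intervals of the trunk and posterior groups did not overlap between libraries, and those of the anterior groups did. The mutant sums, from anterior to posterior, rested on only 48, 14 and 10 UMIs. Of the anterior UMIs in the mutant 16 were of Hoxb2, and 13 of these lay in 1 cell. Without the top cell of each library the Hoxb2 log2 ratio was -1.83. The anterior sum was not recomputed without these cells. In Cdh5 cells of the same libraries groups 5 to 8 lay at 110 and 116 CPM and groups 9 to 13 at 44.8 and 40.9. Hoxa7 had 26 UMIs in 11 control cells and 0 in the mutant, at least 2.87-fold lower against the floor. By cell, 18 control and 4 mutant cells reached groups 9 to 13, 13 and 3 reached groups 5 to 8, 15 and 5 held groups 1 to 4 only, and 5 and 1 held no Hox UMI.

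**Figure D3:**
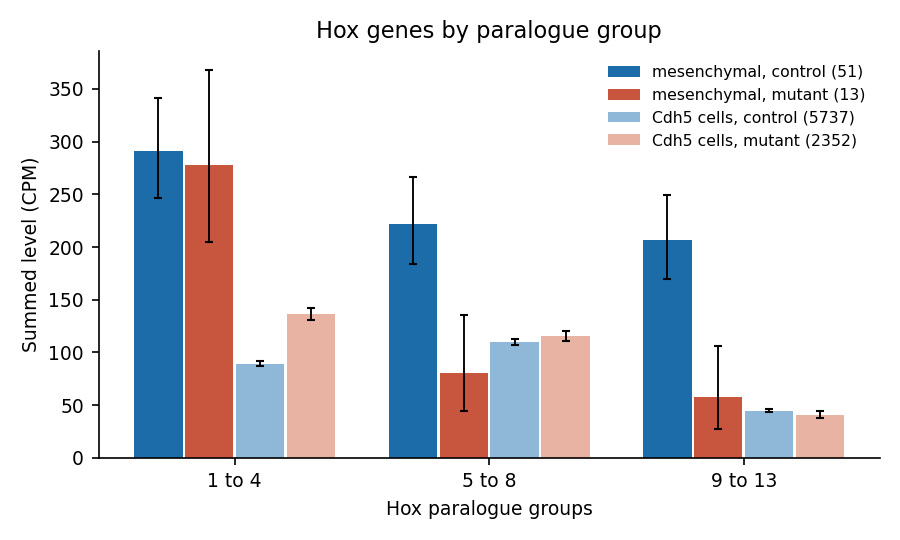
Summed level in CPM of Hox genes in 3 bands of paralogue groups, in mesenchymal and Cdh5 cells of each library; bars are class sums and whiskers exact Poisson 95% intervals. From control to mutant mesenchymal cells the anterior band was 291 and 277 CPM, and the posterior band was 207 CPM and 57.8 CPM.

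Genes of hypoxia and glycolysis set the mutant mesenchymal cells apart from the control ones. Under low oxygen, hypoxia-inducible factors bind a short element in the promoters of genes for glucose uptake, glycolysis, lactate export and mitochondrial turnover. Of 25 list genes with at least 20 UMIs, 24 were past 2-fold higher in the mutant and 0 past 2-fold lower, with a median log2 ratio of 2.34; of all 3854 genes, 6.33% were past 2-fold higher and 10.8% lower, with a median of -0.10. A fold here is the ratio of CPM between 2 libraries. That these genes were higher in the mutant was known when the list was chosen.

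Promoters of the 4 genes with the most UMIs among those list genes past 2-fold whose promoter holds the core element ACGTG, on either strand, are shown because these genes were higher together. Each is the RefSeq sequence of GRCm38.p6 from 250 bases before to 50 after the gene start, 5′ to 3′ on the gene's strand, with the element or its reverse complement CACGT in capitals; where both overlap they read CACGTG, which is also the E-box.
Gapdh (chr6:125165724-125166023, minus strand): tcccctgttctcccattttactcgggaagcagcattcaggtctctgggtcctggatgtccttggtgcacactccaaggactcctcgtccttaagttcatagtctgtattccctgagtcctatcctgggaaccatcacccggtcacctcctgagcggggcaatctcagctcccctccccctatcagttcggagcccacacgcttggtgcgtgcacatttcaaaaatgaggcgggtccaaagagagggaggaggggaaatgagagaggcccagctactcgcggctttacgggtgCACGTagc
Ldha (chr7:46845554-46845853, plus strand): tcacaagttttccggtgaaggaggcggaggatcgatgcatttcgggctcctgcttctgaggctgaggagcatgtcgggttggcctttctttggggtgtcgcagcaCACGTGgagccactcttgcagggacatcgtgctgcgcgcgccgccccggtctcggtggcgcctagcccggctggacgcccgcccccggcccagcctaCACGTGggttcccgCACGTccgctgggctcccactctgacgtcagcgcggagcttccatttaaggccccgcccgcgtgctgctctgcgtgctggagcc
Pgam1 (chr19:41911621-41911920, plus strand): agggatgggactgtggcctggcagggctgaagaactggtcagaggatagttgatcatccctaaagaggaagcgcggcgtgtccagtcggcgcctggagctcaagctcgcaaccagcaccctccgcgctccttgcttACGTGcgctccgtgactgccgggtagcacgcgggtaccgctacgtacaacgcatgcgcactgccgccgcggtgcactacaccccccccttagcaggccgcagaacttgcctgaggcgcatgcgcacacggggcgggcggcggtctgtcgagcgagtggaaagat
Bnip3 (chr7:138909457-138909756, minus strand): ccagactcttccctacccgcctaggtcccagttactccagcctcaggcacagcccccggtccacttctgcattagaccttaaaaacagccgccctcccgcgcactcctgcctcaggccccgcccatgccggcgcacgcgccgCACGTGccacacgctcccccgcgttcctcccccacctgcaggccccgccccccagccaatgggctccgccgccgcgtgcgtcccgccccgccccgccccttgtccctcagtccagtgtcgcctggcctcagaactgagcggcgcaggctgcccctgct
The element was found in 19.7% of 27025 promoters, in 15 of the 28 list genes with a promoter in the table (53.6%) and in 13 of the 22 list members past 2-fold that have one (59.1%). The Ldha window holds 5 matches in 3 runs, 2 of them overlapping an E-box. A match describes the letters only.

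RNA of genes for glucose entry and glycolysis was higher in the mutant at most steps. Uptake and glycolysis themselves were not measured. Slc2a1, the glucose transporter, lay at 30.6 CPM (17.5 to 49.8) in control and 283 CPM (210 to 374) in mutant cells, a ratio of 9.24 (5.17 to 17.4), with UMIs in 11 of 51 and 12 of 13 cells. Aldoa lay at 437 and 2347 CPM, Tpi1 at 331 and 1237, and Pfkl, of the committing step, at 34.5 and 237 CPM. Ldha, which makes lactate, lay at 803 CPM (728 to 883) and 2688 CPM (2449 to 2944); its UMIs per cell ran from 0 to 27 with a median of 7 in the control, and from 19 to 84 with a median of 28 in the mutant. Gapdh lay at 1983 and 3965 CPM, 2.0 times as much (1.81 to 2.20), at the edge of the 2-fold bound. Slc16a3, which exports lactate, lay at 21.1 and 260 CPM, a ratio of 12.3 (6.29 to 26.5).

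Most measured list genes with other functions were higher as well. Bnip3, a mitophagy receptor, lay at 34.5 and 468 CPM, a ratio of 13.6 (8.08 to 24.1). All 13 mutant cells had a Bnip3 UMI, with 1 to 22 each, against 13 of 51 control cells, with at most 3. Adm, a secreted vasodilator peptide, had 0 control UMIs and 24 in 6 mutant cells, at least 24.1-fold higher against the floor. Ddit4, an inhibitor of mTOR signalling, lay at 11.5 and 272 CPM, but 30 of its 47 mutant UMIs came from 1 cell. Egln1, an oxygen sensor, lay at 67.0 and 341 CPM, in 13 of 13 mutant cells. Ankrd37 lay at 15.3 and 197 CPM and Ndufa4l2, a mitochondrial protein, at 19.2 and 272. The Ndufa4l2 value rests on 10 control UMIs in 4 cells, and its log2 ratio of 3.77 became 0.39 with cells thinned to 2000 UMIs. Vegfa, the vessel growth factor, had 12 control and 11 mutant UMIs, the latter in 2 cells. Plod2, a lysyl hydroxylase of collagen, had a ratio of 1.38 (0.713 to 2.56), the only measured list gene under 2-fold.

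Cell by cell the list did not overlap between genotypes. Its summed level ran from 2103 to 9640 CPM in the 51 control cells, with a median of 5240, and from 13389 to 23841 CPM in the 13 mutant cells, with a median of 18650. In Cdh5 cells the medians were 5722 and 17197. Of these, 12 of 5737 control cells reached the lowest mutant mesenchymal cell, and 64 of 2352 mutant cells lay at or below the highest control one. With all cells at 2000 UMIs, a control cell held a median of 6 of the 33 genes, from 2 to 11, and a mutant cell 13, from 9 to 18. In mesenchymal cells with at most 1 other endothelial gene the hypoxia list level was 101% of that of Cdh5 cells in the control and 107% in the mutant. Their endothelial level, 1.54% and 3.17% of that of Cdh5 cells, was set low by this choice of cells. The part that joined cells or free RNA had in the hypoxia levels was not tested. Both classes come from the same 2 libraries, so this is 1 pair of libraries seen in different cells.

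**Figure D4:**
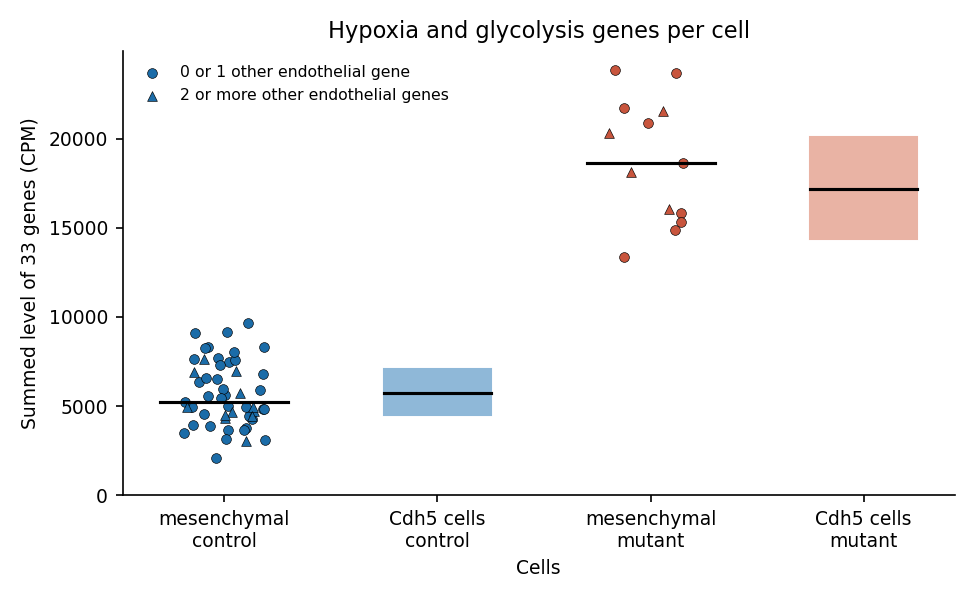
Summed CPM of the 33 hypoxia and glycolysis genes per cell: each point is a mesenchymal cell, with circles for cells with 0 or 1 other endothelial gene and triangles for the rest, boxes span the quartiles of Cdh5 cells, and black lines are medians. No control mesenchymal cell exceeds 9640 CPM and no mutant one lies under 13389 CPM.

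Smooth muscle genes were higher in the mutant sum, with most of the UMIs in 3 cells. Transgelin, encoded by Tagln and an early marker of smooth muscle, lay at 107 and 1555 CPM. Its 269 mutant UMIs came from 5 of 13 cells, with 107, 97 and 52 in 3 of them, and the highest of the 51 control cells had 18. The same 3 mutant cells held 73, 34 and 11 of the 122 Acta2 UMIs, the gene of smooth muscle actin, and 28, 27 and 14 of the 88 Myl9 UMIs. They held 8, 1 and 4 of the 11 other endothelial genes. In the other 10 mutant cells, set apart by their lower Tagln, Tagln lay at 98.9 CPM (52.7 to 169) and Acta2 at 30.4 CPM (8.30 to 78.0), against 107 and 59.4 CPM in the control. Myl9 lay at 145 CPM (87.1 to 226) in these 10 cells, with UMIs in 6 of them, against 53.6 CPM (35.6 to 77.5) in the control, with UMIs in 13 of 51. Only 4 of the 13 genes of the list had at least 20 UMIs. All 4 were past 2-fold higher in the mutant sum, beside 6.33% of all genes, with Tpm2, tropomyosin, at 97.7 and 283 CPM. At least 2 of the list's genes were held by 23 of 51 control and 9 of 13 mutant cells, and by 7 and 6 when thinned to 2000 UMIs. In Cdh5 cells the Tagln ratio was 6.20 (5.73 to 6.70). Actc1, the cardiac actin, had 31 of its 43 mutant UMIs in 1 of the 3 cells. Barx1, a homeobox factor, had all 42 of its mutant UMIs in 1 cell, and Foxf1 had 24 in 2 cells.

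Somite genes summed to a lower level in the mutant cells. Pax1, the sclerotome factor, had 26 UMIs in 9 control cells and 0 in the mutant, at least 2.87-fold lower against the floor, and Meox2 had 20 in 16 cells and 0, at least 2.21-fold. The list sum was 370 CPM (319 to 426) and 179 CPM (122 to 254). Of the 5 measured genes of the list 4 were past 2-fold lower, beside 10.8% of all genes. Their median log2 ratio was -1.39, and -0.19 among cells with at least 3 of the 4 marker genes. Tcf15, of the epithelial somite, lay at 113 and 40.5 CPM, whereas Meox1 had a ratio of 0.779 (0.309 to 1.73). The lateral plate sum was 418 CPM (364 to 477) and 740 CPM (617 to 880), with a median log2 ratio of 0.46, and -0.26 with at least 3 markers. In the mutant this sum rested on 128 UMIs, partly from single cells. A single mutant cell held 22 of the 24 Foxf1 UMIs, and 1 held 14 of the 17 Gata6 UMIs. Without the deepest 1% of cells the log2 ratio of Foxf1 became 0.11 and that of Gata6 -0.74. Nr2f1, an orphan nuclear receptor, lay at 226 and 57.8 CPM, and Nnat at 732 and 249. Ptn, the lateral plate leader above, was nonetheless lower in the mutant, with a ratio of 0.418 (0.323 to 0.535). Nr2f1 lay at 154 and 219 CPM in control cells with somite and with lateral plate genes alone, a ratio of 0.701 (0.379 to 1.30). In Cdh5 cells both list sums were lower in the mutant. The ratio there was 0.659 (0.626 to 0.694) for the somite list and 0.731 (0.697 to 0.767) for the lateral plate list. The part that the makeup of the 13 mutant mesenchymal cells had in the genotype ratios was not tested.

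Most measured matrix genes were within 2-fold between the libraries. Of 17 measured matrix genes, 0 were past 2-fold higher and 3 lower, against 6.33% and 10.8% of all genes. Their median log2 ratio was -0.11. The list includes Col1a1 and Col3a1, which the rule used, so their values are a description only. Col3a1 had a ratio of 0.917 (0.630 to 1.31), but its log2 ratio became -1.45 with thinning and -0.75 with at least 3 markers. Col1a1 had a ratio of 0.339 (0.164 to 0.633) and Col2a1 of 0.377 (0.0969 to 1.06). Vcan, a large proteoglycan, lay at 115 and 156 CPM, and Sparc at 251 and 312. Of 9 measured collagen-modifying genes the 2 past 2-fold higher were the prolyl hydroxylase subunits P4ha1, at 24.9 and 197 CPM, and P4ha2, at 34.5 and 116, both also on the hypoxia list. Among mesenchymal factors Snai1, a repressor of E-cadherin, was 2.08 times as high in the mutant (1.12 to 3.81), at 116 CPM against 55.5. Among the 10 measured signals to vessels 1 was past 2-fold higher and 3 lower.

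Sterol synthesis and replication genes summed to a lower level, and cell division genes did not. Of 9 measured sterol genes 5 were past 2-fold lower, beside 10.8% of all genes. Their median log2 ratio was -1.21, against -1.56 in Cdh5 cells. Idi1, an isoprenoid isomerase, lay at 91.9 and 28.9 CPM. The S-phase list summed to 1726 CPM (1615 to 1842) and 1145 CPM (991 to 1316), with the ribonucleotide reductase gene Rrm2 at 203 and 75.1 CPM. Of its 17 measured genes 3 were past 2-fold lower, beside 10.8% of all genes. The histone chaperone gene Nasp, among the genes lowest in the mutant, lay at 670 and 249 CPM. The G2/M list summed to 5137 and 6405 CPM, a ratio of 1.25 (1.16 to 1.34). Past 2-fold lower were 2 of its 16 genes, near the 10.8% of all genes, and 0 were higher. Of its 1108 mutant UMIs 543 were of Hmgb2, with 166 of these in 1 cell. Of 5 measured genes of the amino acid stress response 4 were past 2-fold higher, beside 6.33% of all genes, with the factor Atf4 at 102 and 237 CPM. Their median log2 ratio of 1.23 became 0.55 with at least 3 markers and 0.63 with at least 50 UMIs, each over 2 genes. Immediate early genes summed to 3004 and 2642 CPM, and 0 of 8 were past 2-fold in either direction. Fam212a, Prpf19, Sfpq, Hook3, Ccdc25 and Pcp4 completed the genes lowest in the mutant, at 0 to 139 CPM against 47.9 to 450.

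The genotype ratio was set beside that in Cdh5 cells, where 8.11% of 13029 genes were past 2-fold higher and 10.1% lower. For 310 of 3631 genes the 2 intervals did not overlap. The hypoxia list had a median log2 ratio of 2.02 in Cdh5 cells and 2.34 in mesenchymal cells, and its sum a ratio of 2.89 (2.88 to 2.91) and 3.17 (3.02 to 3.33). Klf2, a flow-responsive factor downstream of Mekk3 in endothelium, had a ratio of 0.313 in Cdh5 cells but 2.30 (1.37 to 3.83) in mesenchymal cells, where it lay at 72.8 and 168 CPM, in 17 of 51 and 10 of 13 cells. Klf4 had a ratio of 0.874 (0.403 to 1.74) in mesenchymal cells. Sox9 lay at 123 and 46.2 CPM in mesenchymal cells, a ratio of 0.377 (0.156 to 0.789), whereas in Cdh5 cells it went from 2.47 to 48.3 CPM. Dlk1, an imprinted growth regulator, had a ratio of 0.521 (0.368 to 0.723), against 5.51 in Cdh5 cells.

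**Figure D5:**
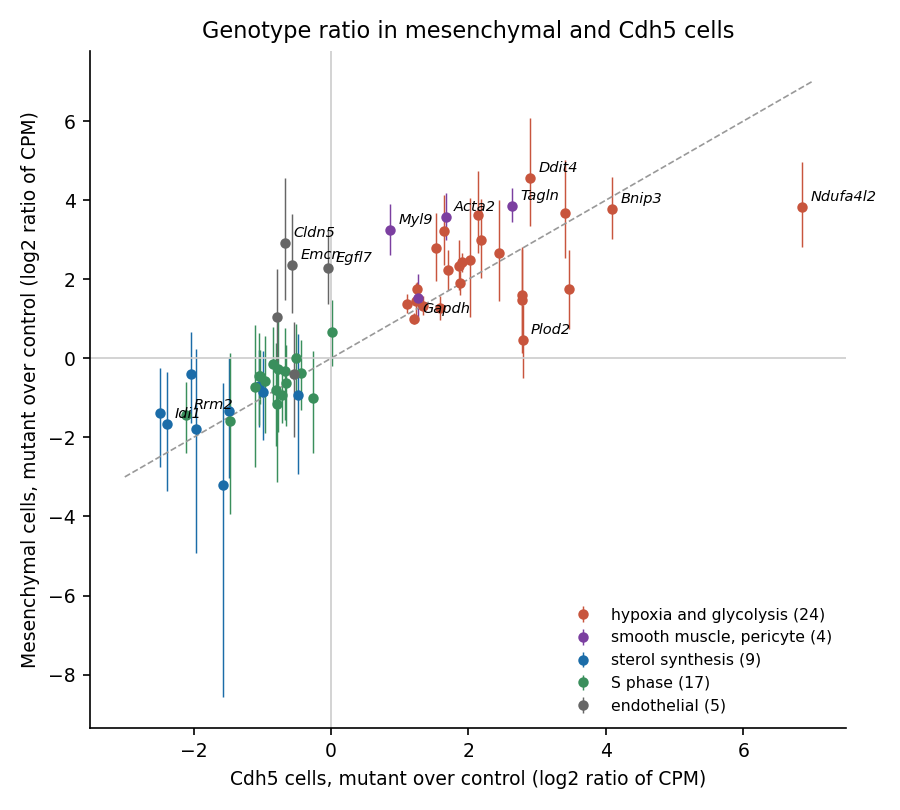
Mutant over control ratio of CPM, as log2, in Cdh5 cells (horizontal) and mesenchymal cells (vertical), for genes of 5 lists with at least 20 UMIs and UMIs in both sums; vertical bars are 95% intervals of the mesenchymal ratio and the dashed line marks equal ratios. Hypoxia and glycolysis genes lie to the upper right, with Ndufa4l2 farthest right, and the endothelial genes Cldn5 and Emcn lie above 0 on the vertical and below 0 on the horizontal axis.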

How the data were processed

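Droplet-based 3′ single-cell RNA libraries were made from 1 control and 1 mutant sort. The authors deposited raw UMI counts of genes by cells, with a cell table giving the genotype, total count, mitochondrial fraction and a size factor ratio per cell, per the file headers. Cell Ranger and build mm10 are named in the submitters' processing notes, without a version; the aligner settings, annotation release and cell filter are not given in the sources used. The mitochondrial fraction deposited was recomputed and matched, and the size factor ratio, which the authors deposited, was not used.

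Counts of the chosen cells were summed per library and divided by the sum of the cells' total counts to give CPM. Levels have exact Poisson intervals, shares exact Clopper-Pearson intervals and ratios exact conditional binomial intervals, at 95%. The software was Python 3.11.15 with pandas 2.3.3, scipy 1.17.1 and numpy 2.4.6. For log2 ratios each sum was raised by 0.5 UMI. Genes with at least 20 UMIs over both sums were compared, and past 2-fold means a CPM ratio of at least 2 or its inverse. Thinning drew 2000 UMIs per cell without replacement. No doublet caller was run and free RNA was not removed. TMM factors came from edgeR 4.0.16 in R 4.3.3, as a scaling only. The steps were tested on simulated data.

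The members and gene lists were chosen with earlier results of these data known. Genes named were those of the rule and Crabp1, the 12 highest and 8 lowest against Cdh5 cells and the 12 highest and 12 lowest in the mutant by the interval bound nearest to 1, among genes of 20 CPM or more on average that were not sex-linked, predicted, hemoglobin, ribosomal or mitochondrial, up to 5 per list by UMIs and 8 by the gap to the ratio in Cdh5 cells. Others, such as Tpi1, Pfkl, Egln1, Vegfa, Snai1, P4ha2 and Vcan, were named from their lists after their values were seen. Values of 1 gene that met these rules are not reported here. Promoters came from RefSeq on GRCm38.p6.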

Additional observations from a re-analysis of the deposited data

Results flagged for a closer look

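For 13 named genes the mutant over control ratio had intervals on opposite sides of 1 in mesenchymal and in Cdh5 cells. The difference between the classes was not tested, since each group was 1 library. Values are log2 ratios, first in mesenchymal and then in Cdh5 cells.

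Of the endothelial genes among them, Cldn5 had 2.85 and -0.67, Emcn 2.33 and -0.57, Egfl7 2.27 and -0.05. The matrix linker Hapln1 had 4.26 and -1.04, and the hematopoietic and endothelial factor Lmo2 had 2.87 and -0.84. Single mutant cells held 14 of the 15 Cldn5, 7 of the 9 Hapln1 and 7 of the 8 Lmo2 UMIs. Klf2 had 1.21 and -1.68, with 11 of its 29 mutant UMIs in 1 cell.

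Lower in mutant mesenchymal cells and higher in mutant Cdh5 cells were Sox9, with -1.33 and 4.29, Krt18, with -2.75 and 1.47, Gas1, with -1.21 and 0.52, and Dlk1, with -0.93 and 2.46. Mt1, a metallothionein, had -1.60 and 1.69, with 96 of its 105 control UMIs in 1 cell. Smaller differences were those of Peg3, with -0.60 and 0.08, and the chromatin protein gene Hmgb2, with 0.45 and -0.11.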

How the results depend on the processing

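No paired analysis was possible because each group was 1 library.

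The mesenchymal share became 0.330% of the control and 0.247% of the mutant with at least 3 of the 4 marker genes, a ratio of 0.749, and with thinning to 2000 UMIs 0.410% of the control and 0.0382% of the mutant, a ratio of 0.0932. The ratio was 0.697 with at least 2 of 5 genes, Crabp1 added. The genes past 2-fold in mutant mesenchymal cells, 244 higher and 416 lower, became 53 and 144 with thinning, 69 and 121 with at least 50 UMIs, and 2229 and 3793 with no minimum; fewer or more genes were then measured. Those higher became 109 with at least 3 markers and 127 without the top cell of each gene. The comparison with Cdh5 cells was repeated on genes with at least 10 UMIs expected in the members, a bound chosen after seeing the data. The control's 1705 higher and 3363 lower genes became 136 and 738 of 5016. The mutant's 1568 and 3579 became 59 and 271 of 2136. The hypoxia median became 1.67 with thinning, over 9 genes, and was 2.16 to 2.38 elsewhere. Cells with 2 genes of a list became, with thinning, 5 for somite, 11 for lateral plate, 3 for neural crest and 13 for smooth muscle, and with 3 genes required 15 for lateral plate and 1 for neural crest.

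Of 1539 values for 129 named genes, 1442 stayed within the main interval, 80 left it without turning and 17 turned. Thinning turned Lum to 0.87, Cd34 to -1.20, Fgfr1 and Aldh1a2 to 0.10, Idi1 to 0.046 and Hoxa9 to 0.39. With at least 3 markers Barx1 became -0.17, Gata6 -2.29, Foxf1 -0.35 and Mt1 1.41. Without cells holding a neural gene Barx1 became -2.71 and Gata6 -0.80, and without the deepest 1% of cells -2.88 and -0.74. Without the top cell Barx1 became -0.99 and Mt1 1.25, and without the erythroid cell, a choice made after seeing the data, Mt1 became 1.79. The epithelial median became 0.11 with at most 1 other endothelial gene. Of 62 named genes past 2-fold, 27 fell under it or turned in some alternative. Among these, thinning took Ndufa4l2 from 3.77 to 0.39, Nasp to -0.35, Gas1 to -0.35, Prpf19 to -0.84 and Meox2 to -0.84, at least 3 markers took Tcf15 to -0.34 and Cldn5 to 0.68, and leaving out the top cell took Klf2 to 0.78, Col1a1 to -0.40 and Foxf1 to 0.69. Ndufa4l2 was 5.28 with at least 3 markers and 5.41 with at most 1 other endothelial gene. Depth limits all these values: with 172993 mutant UMIs, a gene at 0 may lie at up to 17.3 CPM.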
